A study of Mus musculus with 2 samples.

Results

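The Myc, Pvt1 and Trib1 domain of mouse chromosome 15 was examined for REV-ERBα peaks in T helper 17 (Th17) cells, the CD4 T cells that make interleukin-17. The domain was taken as 58.0 to 63.5 Mb in mm9 coordinates, and a peak belonged to it where its midpoint lay inside. Of the 8884 peaks in the authors' list, 94 (1.06%) met this rule. They fell into 3 stretches: 55 peaks from 58.0 to 60.0 Mb (the Trib1 side), 8 from 60.0 to 61.7 Mb (upstream of Myc) and 31 from 61.7 to 63.5 Mb (Myc, Pvt1 and downstream). The domain was selected on the positions of the listed peaks, after earlier results of these data had shown many of them there. The number, density and spacing of its peaks are therefore a description and were not tested.

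The study has 1 ChIP sample and 1 input sample, both of genomic DNA from wild-type Th17 cells grown in primary culture. The ChIP antibody was against REV-ERBα (Reverb-alpha in the labels), and the input is DNA without immunoprecipitation. The sources used here give neither the strain, age and sex of the mice nor whether animals were pooled. The ChIP library held 6390234 tags, of which 2.52% lay in peaks. No value below has a replicate behind it, and all intervals are 95% intervals that cover counting error only. A peak list holds no expression values, so the Th17 label was not checked against marker genes.

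REV-ERBα, a clock-controlled nuclear receptor, represses transcription, in part by recruiting the NCoR corepressor. Myc encodes a transcription factor that drives cell growth and metabolism and is induced when T cells are activated. Pvt1, its neighbour, is a long non-coding RNA gene, and Myc is known for regulatory elements spread over long distances around it. Trib1 encodes a pseudokinase that brings targets such as C/EBP transcription factors to the COP1 ubiquitin ligase. In the RefSeq table of the GRCm38.p6 assembly, used only for names and order, all 3 symbols matched. Of the 24 genes listed between Trib1 and Myc, 3 are protein-coding (4933412E24Rik, Lratd2 and A1bg), 8 are long non-coding RNA genes and 10 are pseudogenes. No gene is listed between Myc and Pvt1, and the next protein-coding gene after Pvt1 is Gsdmc, which belongs to the gasdermin family. On the other side, Nsmce2, which encodes a subunit of the SMC5/6 complex, is the nearest protein-coding gene before Trib1. The table is of another build than the peaks, so no peak was assigned to a gene, a promoter or an intron, and the stretches keep the names that the rule gave them.

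REV-ERBα peaks lay in 2 dense blocks, and the stretch between them held fewer peaks per Mb. The Trib1 side had 27.5 peaks per Mb (Poisson interval 20.7 to 35.8), the stretch upstream of Myc 4.71 (2.03 to 9.27) and the stretch of Myc, Pvt1 and downstream 17.2 (11.7 to 24.4). The rest of chromosome 15 had 3.23 peaks per Mb (2.87 to 3.61) between its first and last peak. This value lies inside the interval of the stretch upstream of Myc. The median distance between neighbours in that stretch, 106 kb, was however above the 50.8 kb of the list. Whether the stretch is sparse beside the rest of the chromosome was not tested, as the stretches were chosen on peak positions. The whole domain held 17.1 peaks per Mb, which is 23.9% of the chromosome's 393 peaks on 5.6% of the length from its first to its last peak. In 437 autosomal windows of the same 5.5 Mb length, laid end to end, the median was 17 peaks, with quartiles of 7 and 28. The highest of these windows, on chromosome 11, held 81. The window from 55000001 to 60500000 on chromosome 15, which covers the Trib1 side, held 62, and the borders of the domain were set with its peaks known while those of the windows were not.

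**Figure D1:**
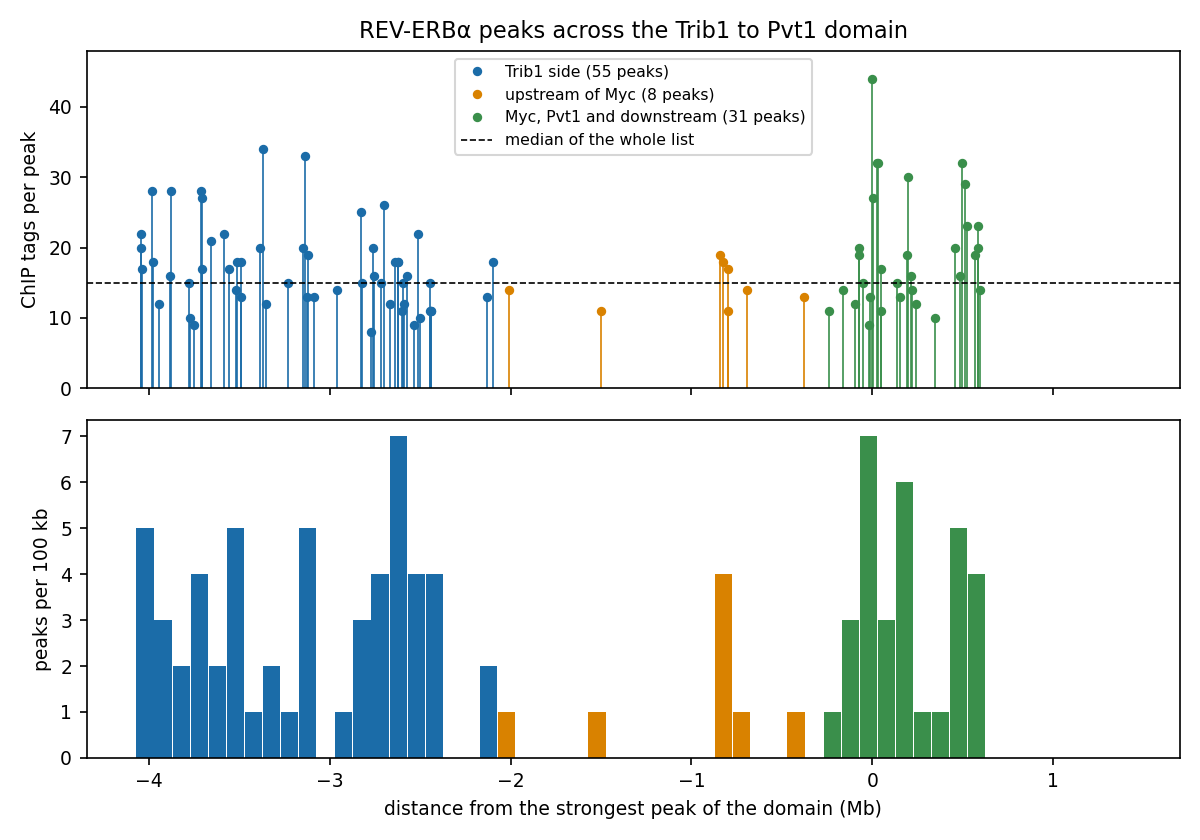
REV-ERBα peaks of the domain by distance from its strongest peak (Mb). The upper panel gives ChIP tags per peak, 1 stem a peak, with the median of the whole list (15) as a dashed line, and the lower panel gives peaks per 100 kb bin. The 55 peaks of the Trib1 side and the 31 of the Myc, Pvt1 and downstream stretch form the dense blocks, and 8 peaks lie between them.

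The dense blocks did not fill their stretches. On the Trib1 side the peaks ran from 58026556 to 59973586, and only 2 of them lay beyond a gap of 308.7 kb that followed the peak ending at 59634317. In the stretch of Myc, Pvt1 and downstream all 31 peaks lay within 837.1 kb, from 61829993 to 62667104. Counted from its first to its last peak this block had 37.0 peaks per Mb, against 28.3 on the Trib1 side and 4.9 upstream of Myc. No peak was listed in the remaining 833.0 kb up to the end of the domain. The next peak on the chromosome, at 63837633, lay 337.8 kb beyond that end.

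In bins of 100 kb, 24 of the domain's 55 bins held no peak. These were 3 of 20 on the Trib1 side, 12 of 17 upstream of Myc and 9 of 18 in the stretch of Myc, Pvt1 and downstream. The most peaks in a bin was 7. This was reached in the bins starting at 59400001 on the Trib1 side and at 62000001 in the Myc, Pvt1 and downstream stretch. The bins had the same number of peaks but different tag sums. The bin at 59400001 held 104 tags, or 14.9 a peak, and the bin at 62000001 held 159, or 22.7 a peak.

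The strongest peak of the domain lay in the Myc, Pvt1 and downstream stretch, at 62071610 to 62071916. It had 44 ChIP tags (32.0 to 59.1), a normalised tag count of 68.9 per 10000000 tags and a score, given by the caller, of 36. By tags it ranked second on chromosome 15 and 61st in the whole list. Input there was 2.8 scaled tags, which is 3 whole tags, so the listed 15.52-fold enrichment has an interval of 4.97 to 78.1. Its enrichment over the surrounding 10000 bp was 18.59-fold.

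Other strong peaks lay close to it. A peak of 27 tags lay 5.36 kb further along the chromosome, at 62076969 to 62077275, and was 7.14-fold over input. A pair of peaks with 32 tags each followed, at 62099755 and 62102905, 3.15 kb apart. They had equal tag counts but input of 1.9 and 5.7 scaled tags, and so listed folds of 16.93 and 5.64. The intervals of these folds, 4.32 to 146 and 2.33 to 16.5, overlap. With peaks linked at up to 20 kb, the strongest peak belonged to a run of 4 peaks and 93 tags, and the pair of 32 tags to another run of 4 peaks and 92 tags.

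Further along the same block lay 3 more runs of 4 peaks. The run from 62263501 to 62291991 held 79 tags, and its strongest peak, at 62270426, had 30 tags and 10.58-fold enrichment. The run from 62558114 to 62595054 held 100 tags. Of the 8 runs of at least 4 peaks in the domain, only that of 7 peaks on the Trib1 side held more, 108. The run from 62558114 included a peak of 32 tags at 62566471, 16.93-fold over input. Another of its peaks, at 62584248, had 29 tags and was 30.68-fold over 1 input tag. The last run, from 62640828 to 62667104, held 76 tags and ended the block. By the naming rule, the strongest peaks of this stretch are those of 44, 32, 32, 32 and 30 tags; the intervals of the 4 weaker ones, 21.9 to 45.2 for 32 tags and 20.2 to 42.8 for 30, overlap that of the strongest, so their order is not resolved.

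On the Trib1 side the 5 peaks with the most tags lay below 59.0 Mb, at the end away from the other stretches. At 58703917 to 58704223 a peak held 34 tags (23.5 to 47.5) and was listed at 35.97-fold over 1 input tag, and 19.23-fold over its surroundings. Next came a peak of 33 tags, 11.64-fold over input, at 58937528 to 58937834. A further 3, of 28 tags each, lay at 58090825, 58194973 and 58361726. Equal in tags, they differed in scaled input, which was 0.9, 3.8 and 5.7, and hence in listed fold, which was 29.62, 7.41 and 4.94. The order by score differs from that by tags. The score was 24 for the peak of 34 tags, 27 for that of 33, and 22, 26 and 25 for those of 28.

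Above 59.0 Mb the Trib1 side had many peaks of low or middling strength. Its longest run, 7 peaks linked at up to 20 kb from 59430384 to 59501684, had 11 to 18 tags a peak and 108 in all. The chain from 59623629 to 59634317 had 4 peaks of 11, 15, 11 and 11 tags within 10.7 kb, each 5.82- to 11.64-fold over input. It was followed by the gap of 308.7 kb. The strongest peaks of this part had 26 tags, at 59372617, and 25 tags, at 59241846.

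Upstream of Myc the 8 peaks had 14, 11, 19, 18, 11, 17, 14 and 13 tags in order of position. None reached 20 tags, while 16 of 55 peaks on the Trib1 side (29.1%), 12 of 31 in the stretch of Myc, Pvt1 and downstream (38.7%) and 26.4% of the whole list did. With 8 peaks, 0 allows a share of up to 36.9% (Clopper-Pearson), so a share below that of the list was not detectable. The 5 with the most tags lay at 61228721 (19 tags), 61244687 (18), 61272217 (17), 61378190 (14) and 60062523 (14). Their scores were 12, 14, 10, 13 and 11, so the order by score differs. The peak of 17 tags had the lowest score of the 8. Of the 8 peaks, 5 lay within 149.8 kb, from 61228721 to 61378496, and 657.4 kb without a peak preceded them.

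**Figure D2:**
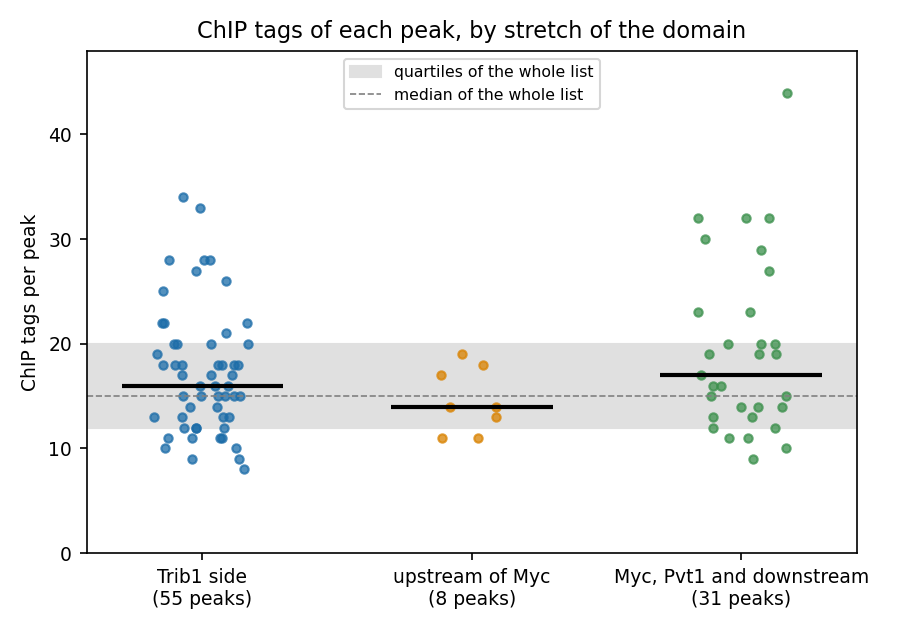
ChIP tags of each peak (vertical axis, linear) in the 3 stretches; black bars are medians, and the grey band and dashed line are the quartiles and median of the whole list. The medians of 16, 14 and 17 tags lie within the band of 12 to 20, and the points above 30 tags are 2 on the Trib1 side and 4 in the stretch of Myc, Pvt1 and downstream.

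The domain's peaks had 8 to 44 tags with a median of 16 and quartiles of 13 and 20, against a median of 15 and quartiles of 12 and 20 over all 8884 peaks. The median was 16 on the Trib1 side, 14 upstream of Myc and 17 in the stretch of Myc, Pvt1 and downstream, and the ranges overlapped. Whether these medians differ was not tested. Peaks of at least 30 tags made up 7 of 94 in the domain (7.45%) and 6.73% of the list, and 5 of these 7 lay in the stretch of Myc, Pvt1 and downstream. The median score was 14 in the domain and 13 in the list. It was 13, 11 and 15 in the 3 stretches. Scores of 9 or 10, at the caller's threshold, were found in 19.1% of the domain's peaks (11.8 to 28.6) and 26.0% of the list. Together the 94 peaks held 1666 of the 161147 tags in peaks (1.03%), near their 1.06% share of the number of peaks. That total includes the list's strongest peak, of about 10560 tags. Without it the list held 150591 tags, so the domain's share would be somewhat larger. On its own chromosome the domain held 4 of the 10, 9 of the 20 and 16 of the 50 peaks with the highest scores. It held 23.9% of all peaks there. None of these high-scoring peaks lay upstream of Myc, but that stretch held only 8 of the chromosome's 393 peaks.

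Input was low at every peak of the domain, where ChIP tags reached at most 44 and the caller required 4-fold over input. Scaled input ran from 0.5 to 5.7 with a median of 1.9, the same median as in the list. The input values lay on whole steps, so they could be read as tags: 11 peaks had none, 26 had 1, 25 had 2, 18 had 3 and 14 had more. The mean was 2.03 input tags a peak (1.75 to 2.34) in the domain and 1.79 in the list without its strongest peak, a value inside that interval. It was 2 on the Trib1 side, 1.5 upstream of Myc and 2.23 in the stretch of Myc, Pvt1 and downstream, and the intervals of the 3 overlap. Because weak peaks pass the filter only where input is low, these means describe listed peaks and not the DNA of the region.

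The listed fold over input is the authors' value and had to reach 4. It ran from 4.02, at 58949635 (19 tags over 5 input tags), to 55.01, at 59372617. The latter peak had 26 tags and no input tag, so its fold is set by the lowest input value of 0.5 that the list gives. The interval from its counts starts at 6.94-fold and has no upper end. At least 8-fold enrichment was listed for 50 of the 94 peaks (53.2%, interval 42.6 to 63.6), where 61.5% of the whole list passed. At least 16-fold was listed for 27 (28.7%, 19.9 to 39.0), where 28.1% of the list passed. Both intervals hold the value of the list. On chromosome 15 outside the domain, 66.2% of 299 peaks (60.6 to 71.6) reached 8-fold, a share above the interval of the domain, and 25.1% (20.3 to 30.4) reached 16-fold, a share inside it. These differences were not tested. The counts at 8-fold were 29 of 55 on the Trib1 side, 4 of 8 upstream of Myc and 17 of 31 in the stretch of Myc, Pvt1 and downstream, shares of 52.7%, 50% and 54.8%.

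**Figure D3:**
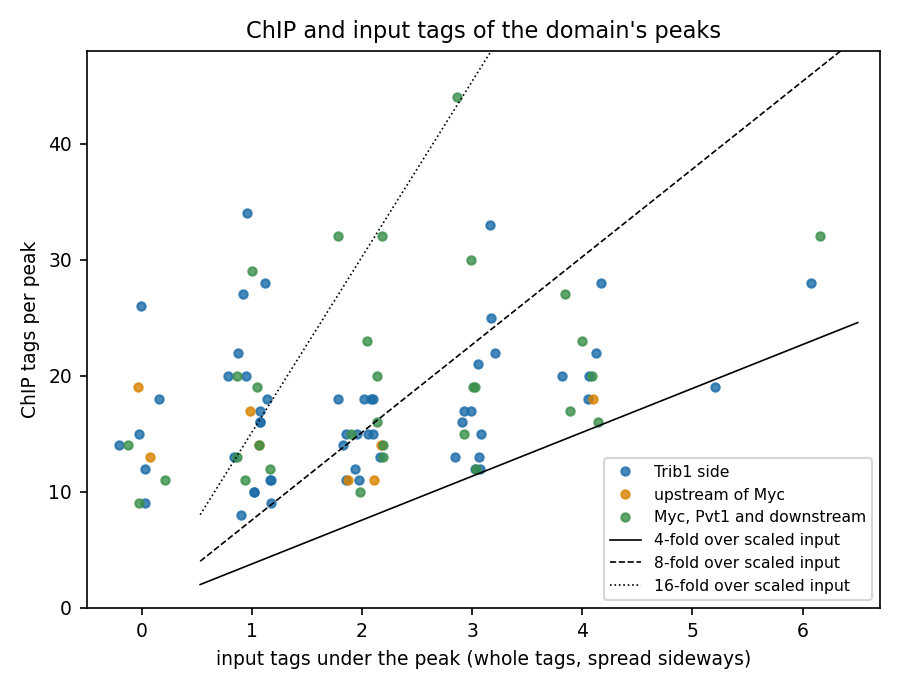
ChIP tags (vertical axis) against whole input tags (horizontal axis, points spread sideways) for the 94 peaks, coloured by stretch; lines mark 4-, 8- and 16-fold enrichment over scaled input and start above 0 input tags. The strongest peak, 44 tags over 3 input tags, lies close to the line of 16-fold, and the peaks of the 3 stretches are mixed along the input axis.

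Enrichment over the surrounding 10000 bp was highest upstream of Myc and higher at peaks without a close neighbour, but it did not follow spacing throughout. Its median was 6.74-fold on the Trib1 side and 7.74-fold in the stretch of Myc, Pvt1 and downstream. Median spacing in these stretches was 19.4 and 18 kb. The median enrichment was 12.65-fold in the sparse stretch upstream of Myc and 7.78-fold in the list. In the domain the 54 peaks with another peak within 10 kb had a median of 6.66 and the other 40 a median of 9.37. The same split of the list gave 6.53 and 8.53. Neighbouring peaks enter each other's surroundings, so this measure is not independent of spacing. Median tags were 17.5 with such a neighbour and 14.5 without, where the list had 16 and 14.

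Neighbouring peaks lay closer in the domain than in the list, as follows from its density. The median distance between midpoints of neighbours was 19.6 kb in the domain and 50.8 kb in the list. It was 19.4 kb on the Trib1 side, 18 kb in the stretch of Myc, Pvt1 and downstream and 106 kb upstream of Myc. Another peak lay within 10 kb of 54 members (57.4%, interval 46.8 to 67.6), against 33.7% of the list. These were 34 of 55 peaks on the Trib1 side, 2 of 8 upstream of Myc and 18 of 31 in the stretch of Myc, Pvt1 and downstream.

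The dense blocks held chains of different lengths. Chains linked at up to 10 kb numbered 24 in the domain, 19 pairs and 5 of at least 3 peaks. All 5 longer chains lay on the Trib1 side, and the 9 chains of the stretch of Myc, Pvt1 and downstream were all pairs. The longer chains held 3 peaks and 59 tags from 58026556 to 58031425, 3 and 72 from 58361726 to 58367929, 3 and 65 from 58937528 to 58949941, 3 and 38 from 59469447 to 59482424, and 4 and 48 from 59623629 to 59634317. The pairs of the Myc, Pvt1 and downstream stretch held 22 to 71 tags. The sum of 71 belonged to the strongest peak and its neighbour, and that of 64 to the pair of 32 tags each. Whether the blocks differ in their share of longer chains was not tested.

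The closest neighbours lay under 1.5 kb apart. The closest pair, 785 bp apart at 61271432 and 61272217, lay in the sparse stretch upstream of Myc and had 11 and 17 tags. Next were a pair of 20 and 23 tags at 62655642 and 62656604 (962 bp) and a pair of 11 and 17 tags at 62118900 and 62119875 (975 bp). Both lay in the Myc, Pvt1 and downstream stretch. On the Trib1 side, 18 and 13 tags lay 990 bp apart at 58580695 and 58581685, and 18 and 18 tags lay 1487 bp apart at 59449951 and 59451438. Within each pair the intervals of the tag counts overlap. Whether such pairs are single broad regions divided by the caller was not tested.

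**Figure D4:**
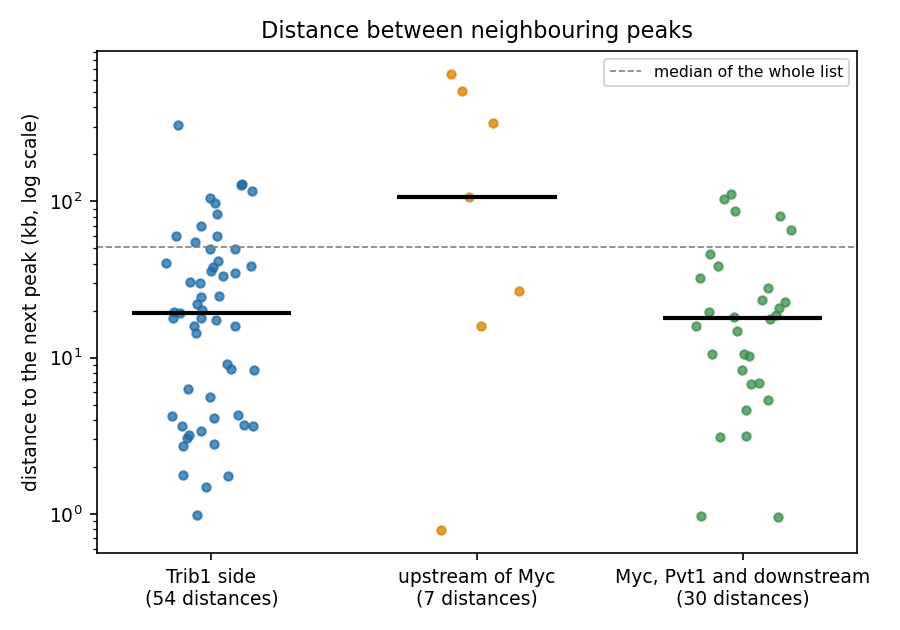
Distance from each peak to the next in the same stretch (kb, log axis); black bars are medians and the dashed line is the median of the whole list, 50.8 kb. The medians of the Trib1 side (19.4 kb) and of the Myc, Pvt1 and downstream stretch (18 kb) lie below that line, and that of the stretch upstream of Myc (106 kb) above it.

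From the last member, at 62666798, the next peak on the chromosome lay 1170.84 kb away, outside the domain. Among distances with both peaks inside the domain, the longest belonged mostly to the sparse stretch. They were 657.4 kb, from the peak at 60571317 to that at 61228721, then 508.79 kb between 60062523 and 60571317, and 317.9 kb between 61378190 and 61696094. The gap of 308.7 kb on the Trib1 side came next. Then came the 133.9 kb between the last peak upstream of Myc and the first of the Myc, Pvt1 and downstream stretch. A region without a listed peak is not shown to be unbound. A site with a score under the threshold of 9 is not listed, and poorly mapped stretches are not marked. Of 14274 putative peaks over the whole genome, the caller also removed 3533 by input and 1857 by local signal. Where these lay is not given.

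The borders of the rule fell in different surroundings. At the start of the domain the last peak outside, at 57996508, had 28 tags and lay only 3.3 kb before 58.0 Mb, and the first inside, at 58026556, had 22. At 60.0 Mb the peaks on either side had 18 and 14 tags and lay at 59973280 and 60062523. At 61.7 Mb the last peak before the border, at 61696094, had 13 tags and lay 3.8 kb from it, and the first after it, at 61829993, had 11. At the end the last member, at 62666798, had 14 tags and the next peak, at 63837633, had 15. The start therefore lies among peaks, and the end in an empty stretch.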

How the data were processed

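The data are the authors' peak list of 1 ChIP sample. Per the submitters' processing notes, CASAVA 1.8.2, Bowtie and HOMER were used with mm9; the sources used here give no other versions. Per the file headers, HOMER findPeaks compared ChIP with input tags (peak size 306 bp, false discovery rate 0.001, 4-fold and Poisson p-value of 1e-04 over input and over 10000 bp, at most 1 tag per bp). Total tags are deposited counts without normalization. The deposited signal columns are tags scaled by the authors to 10000000 and input scaled to ChIP depth. The deposited score is the caller's peak height. Fold values are deposited ratios, and the authors' p-values were not tested again.

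Input tags were recovered by dividing tags by fold, with 0.945 scaled tags as 1 step; the 7392 peaks listed above the lowest value came out whole within a relative 0.00115. Counts have exact Poisson and shares Clopper-Pearson 95% intervals, both treating peaks as independent. Fold intervals come from the binomial interval of ChIP and input tags. Python 3.11.15, numpy 2.4.6, pandas 2.3.3, scipy 1.17.1 and matplotlib 3.10.9 were used, and the code that links peaks into chains was checked on planted positions, which is no test of the listed spacing. Named were the 5 peaks with the most tags in each stretch, the 5 closest pairs and chains of at least 3 peaks. Also named were the extremes of fold, the 5 longest gaps between members and the border peaks. Peaks and runs of the 20 kb linking beyond these were chosen after their values were seen. The domain and its stretches were chosen with earlier results of these data known. Peaks near start sites were not analysed here, as mm9 annotation and sequence were not used.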

Additional observations from a re-analysis of the deposited data

How the results depend on the processing

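With an 8-fold minimum over input, 50 of the 94 peaks remained (29 on the Trib1 side, 4 upstream of Myc, 17 in the stretch of Myc, Pvt1 and downstream) and lowered the share with a neighbour within 10 kb from 57.4% to 36%. Requiring at least the list's median of tags left 59 peaks (36, 3 and 20). Both settings keep fewer peaks by construction. A linking distance of 5 kb gave a share with a neighbour of 40.4%, and 20 kb gave 76.6%. The share of 53.2% at 8-fold was 28.7% at 16-fold. The other 32 of 44 alternatives, including outer borders moved by 500 kb (103 peaks outwards, 78 inwards) and inner borders moved by 100 kb towards higher coordinates (the only direction run), stayed within 1.5 times the count or within the interval. No paired analysis was possible because there is 1 ChIP sample, which also prevents leaving out replicates. At 6390234 tags most peaks rest on 13 to 20 tags, so single peaks cannot be ranked closely.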
